A study of Mus musculus with 10 samples.

Results

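The response of the wild-type mouse retina to bright light was measured by comparing 2 arrays from light-exposed mice, labelled high light, with 2 arrays from mice that were not exposed, labelled no light. These are 4 of the 10 arrays of the series, chosen by their genotype and treatment labels alone, and the comparison covered 19505 named genes. The high light mice were dark-adapted for 16 h, their pupils were dilated with phenylephrine and tropicamide, and they were placed under 15000 lux of white light for 60 min and then kept in the dark overnight. The no light mice were the unexposed controls. None of the sources used here gives the day on which the array retinas were taken. The wild-type mice are labelled as strain Balb/c, whereas the study's methods describe wild-type littermates of Cln3 delta ex7/8 mice that share a C57BL/6J background and the light-sensitive leucine variant of Rpe65. The other 6 arrays came from CLN3-deficient mice (Cln3 delta ex7/8) without light or with light plus NaCl or light plus minocycline, and they mainly served here to estimate the spread between duplicate arrays. Each group held 2 arrays made from independent RNAs of whole retina, and the rod gene Gnat1 was above 19 on the log2 scale in all 4 wild-type arrays.

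Rods and cones are the light-sensing neurons of the retina, and their outer segments hold the visual pigment and the phototransduction cascade. Rpe65 is the enzyme of the retinal pigment epithelium that regenerates the pigment's chromophore, and the leucine variant regenerates it faster, which makes mouse rods more prone to damage by bright light. Under such damage the Müller glia, the radial glia that span the retina, and the microglia, its resident immune cells, are known to become reactive, and the photoreceptors are the cells that die.

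The values are log2 expression levels, so each unit is a 2-fold step, and a difference is given as high light minus no light with its standard error (SE). Duplicate arrays correlated at 0.990 for high light and 0.992 for no light across all 22206 transcript clusters, named or not, which are not independent replicates. A pair of features set the 4 arrays apart beyond light. The Y-linked transcript Kdm5d stood at 3.31 and 3.24 in the high light arrays and at 8.49 and 8.73 in the no light arrays. Eif2s3y, also Y-linked, stood at 3.24 and 3.07 in high light and at 11.76 and 11.49 in no light. Both high light arrays therefore lacked Y-linked transcripts and both no light arrays held them, so sex and light cannot be told apart within the wild-type mice. The second feature was a gap between the no light arrays. The mean of 32 genes of reactive Müller glia and astrocytes, relative to each gene's mean over all 10 arrays, was 0.62 and 0.44 in high light, against -1.10 in no light array 1 and 0.32 in no light array 2. Microglial and complement genes showed a gap between the same arrays, as the plot of list means shows, and for the glial, microglial and complement lists the counts without either no light array are given below.

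Of the 19505 genes, 2044 (10.5%) were higher and 3037 (15.6%) were lower in high light retinas by limma at an adjusted p under 0.05, or 26.0% in either direction. Both high light arrays lay above both no light arrays for 6080 genes (31.2%) and below them for 6195 (31.8%). At the study's threshold (differences of 2 log2 units or more with p under 0.05, here limma's unadjusted p), 60 genes (0.308%) were higher and 92 (0.472%) were lower. The called genes were not spread evenly over expression levels. When the genes were divided by mean level into 5 bins of equal size, 8.3% were called higher and 26.6% lower in the highest bin, whereas in bin 2, next to the lowest, 16.9% were called higher and 3.4% lower. The arrays themselves differed in spread: the lower quartile of the gene values was 5.20 and 5.07 in high light, against 4.84 and 4.81 in no light, and the upper quartile was 10.25 and 10.34 in high light, against 10.60 and 10.63 in no light. Quantile normalization, which removes this difference, gave 1808 higher and 1931 lower genes, so that the share of lower genes among the calls was 51.6% in place of 59.8%. Centring each array on its median gave 2609 higher and 2465 lower genes and a share of 48.6%. A class of genes set apart from naming made up 368 of those called higher and 69 of those called lower. It held predicted genes, Rik and other unnamed clones, olfactory and vomeronasal receptors, microRNA genes and the Y-linked Eif2s3y, Uty and Kdm5d. Percentages of list members below are to be read against the 10.5% and 15.6% of all genes, and the median difference over all genes was 0.02. The share at a list's own level can differ from these. In bins 4 and 5, the highest, 27.8% and 26.6% were called lower. The cilium, lysosome and glycolysis lists, whose mean levels fall in bin 5, had 24.2%, 22.9% and 21.1% of members called lower. The photoreceptor synapse list, also in bin 5, had 31.8%.

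**Figure D1:**
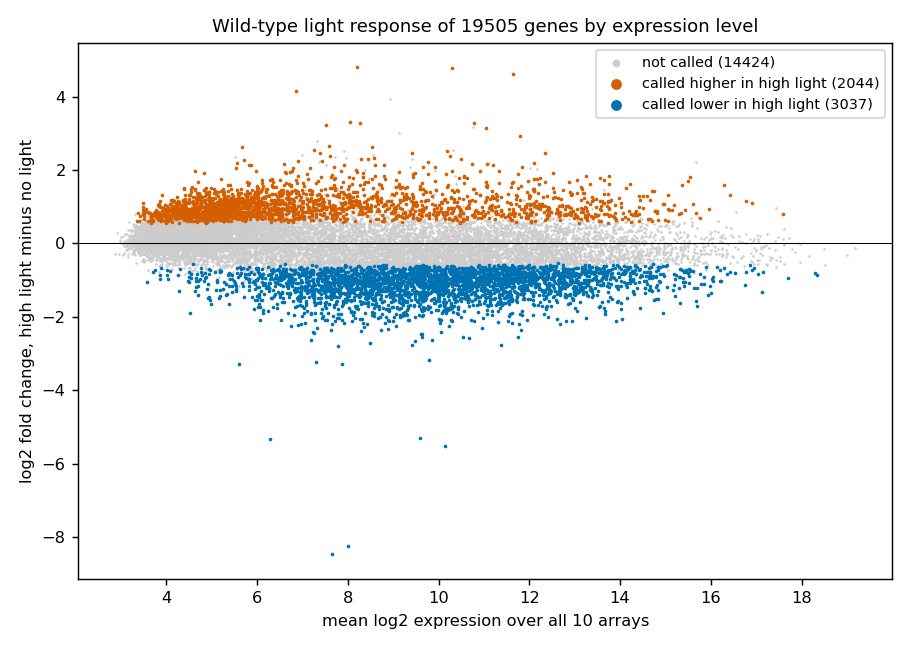
Difference between high light and no light (log2, y axis) against the mean log2 expression over all 10 arrays (x axis) for 19505 genes, with called genes in colour. The 3037 genes called lower lie mostly at middle and high expression and the 2044 called higher reach further into low expression.

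Genes of the rod phototransduction cascade and outer segment were lower in high light retinas. Of 42 measured members 21 fell and 0 rose, the median difference was -0.80, and the members ran from -2.77 to 0.26. In these bulk samples fewer rods and less RNA per rod cannot be told apart. Fscn2, a photoreceptor actin-bundling protein, stood at 6.88 and 8.07 in high light, against 10.34 and 10.14 in no light. Both high light arrays lay more than 2 units below both no light arrays, and the difference was -2.77 ± 0.31 (adjusted p = 7.88e-04). Pde6g, the inhibitory subunit of the rod phosphodiesterase, stood at 14.42 and 14.47 in high light and at 16.48 and 15.79 in no light, a difference of -1.69 ± 0.25 (adjusted p = 0.0017). Guca1b, a calcium sensor that activates retinal guanylate cyclase, stood at 14.64 and 14.92 in high light and at 16.58 and 16.14 in no light, and fell by 1.58 on the log2 scale. Members with lower values in both high light arrays also included the guanylate cyclase Gucy2e (-1.43 ± 0.26), the retinol dehydrogenase Rdh12 (-1.40 ± 0.21), the disc protein Rom1 (-1.13 ± 0.23) and its partner Prph2 (-0.85 ± 0.21). Not every member of the cascade was called. Gnat1, the rod transducin alpha subunit, stood at 19.07 and 19.14 in high light, against 19.21 and 19.23 in no light, among the highest values on these arrays, and did not pass the test (-0.12 ± 0.18, adjusted p = 0.677). The rod count depended on the scale and on single arrays: 11 members fell after quantile normalization, 9 without no light array 1 and 7 without high light array 1, while 23 fell without no light array 2. With a covariate for the presence of Y-linked transcripts 5 fell. Only the light plus minocycline arrays differed in these transcripts within a group, so the covariate is set by the difference between that pair of arrays. It takes up any other difference between them. Here and below, values with this covariate therefore cannot show what sex contributes.

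The transcription factors that set photoreceptor identity were lower too. Of 12 measured, 6 fell and 0 rose, with a median of -0.78. The count was 3 after quantile normalization, 2 without no light array 1, 2 without high light array 1 and 0 with the Y-linked covariate. Nrl, which specifies the rod fate, stood at 13.71 and 14.09 in high light, against 15.66 and 14.86 in no light (-1.36 ± 0.28, adjusted p = 0.00645). Crx, the homeodomain activator of rod and cone genes, stood at 15.69 and 15.97 in high light and at 16.74 and 16.49 in no light (-0.79 ± 0.22, adjusted p = 0.0238). Otx2 differed by -0.46 ± 0.20 and did not pass. CRX binds sites with the core TAATCC, and 12 of 32 rod genes with a promoter sequence (37.5%) held this core on either strand between 250 bases before and 50 bases after their listed start. Over 15691 tested genes the share was 6.41%, and over all 27025 promoters it was 7.16%. A pair of these promoters is shown because both genes fell in high light, with the match in capitals. Prcd, an outer segment disc protein, differed by -1.33 ± 0.26. The capitals in Gucy2e are the reverse complement of the core. A match is a description of the sequence and not a site of binding. Sequences are RefSeq's, in build GRCm38.p6, 5′ to 3′ on the strand of the gene.
Prcd promoter (chr11:116656858-116657157, plus strand): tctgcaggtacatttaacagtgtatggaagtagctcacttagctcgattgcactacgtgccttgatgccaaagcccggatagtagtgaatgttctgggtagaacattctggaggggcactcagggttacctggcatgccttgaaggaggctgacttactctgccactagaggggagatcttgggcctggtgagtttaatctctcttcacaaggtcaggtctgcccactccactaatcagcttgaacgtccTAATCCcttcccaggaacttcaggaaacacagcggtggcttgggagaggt
Gucy2e promoter (chr11:69236973-69237272, minus strand): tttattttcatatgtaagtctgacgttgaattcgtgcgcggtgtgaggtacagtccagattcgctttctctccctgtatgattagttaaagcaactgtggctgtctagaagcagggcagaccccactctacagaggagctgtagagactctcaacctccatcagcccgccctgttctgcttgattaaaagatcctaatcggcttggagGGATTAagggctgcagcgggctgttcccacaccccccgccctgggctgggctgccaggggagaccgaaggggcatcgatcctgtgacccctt

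Cone genes followed in the same direction. Of 18 measured members 8 fell, 1 rose, and the median was -0.62. The number that fell was 5 after quantile normalization, 5 without no light array 1, 4 without high light array 1 and 1 with the Y-linked covariate. Arr3, the cone arrestin, stood at 12.58 and 13.81 in high light, against 14.81 and 14.74 in no light (-1.58 ± 0.35, adjusted p = 0.00783). The high light arrays differed by more than a unit, but both lay below the no light arrays, and the difference was -0.96 without high light array 1. Gnat2, the cone transducin alpha subunit, stood at 13.98 and 14.23 in high light and at 15.08 and 15.20 in no light (-1.03 ± 0.19, adjusted p = 0.00396). The opsins differed by smaller amounts: the M-opsin gene Opn1mw differed by -0.76 ± 0.25 and the S-opsin gene Opn1sw by -0.58 ± 0.20, both just under the threshold (adjusted p = 0.046 and 0.048). Cacna1f, the calcium channel subunit of the photoreceptor synapse, was the cone list's member that rose, at 14.04 and 14.60 in high light and 13.71 and 12.97 in no light. At the same synapse 7 of 22 genes fell and 4 rose, and 3 fell without no light array 1, without high light array 1 or after quantile normalization, where the median was 0.01 in place of -0.26. Pclo and Bsn, the giant scaffold proteins piccolo and bassoon of the active zone, rose by 1.50 ± 0.20 and 0.88 ± 0.26, whereas the regulator of that channel Cabp4 fell by 1.58 and the synaptic vesicle protein Sv2b fell by 1.25. Of 33 genes of the photoreceptor cilium, the bridge between inner and outer segment, 8 fell and 2 rose, and 4 to 8 fell when an array was left out. The intraflagellar transport gene Ift122 fell by 1.75 on the log2 scale (8.45 and 8.18 in high light, 10.18 and 9.94 in no light, adjusted p = 8.49e-04).

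Genes of inner retinal neurons were called in both directions. Among 23 genes of retinal ganglion cells 11 fell, 0 rose and all 23 differences were negative, with a median of -0.75. Tubb3, a neuronal tubulin, stood at 11.25 and 11.29 in high light, against 12.71 and 12.87 in no light (-1.52 ± 0.25, adjusted p = 0.00238). The neurofilament genes Nefh, Nefm and Nefl differed by -1.35 ± 0.27, -1.03 ± 0.23 and -1.01 ± 0.24. Rbpms, an RNA-binding marker of these cells, stood at 9.83 and 9.68 in high light and 10.53 and 10.86 in no light (-0.94 ± 0.25, adjusted p = 0.0191). The ganglion cell count was 6 after quantile normalization, 3 without no light array 2, 7 without high light array 1 and 0 with the Y-linked covariate. Of 29 amacrine and horizontal cell genes 10 fell, among them Chat, the acetylcholine synthesis enzyme of starburst amacrine cells (5.71 and 5.99 in high light, 7.29 and 7.60 in no light), and 2 rose, whereas 4 fell without no light array 2 or without high light array 1 and 0 with the covariate. Penk, the enkephalin precursor, had the list's highest rise: it stood at 13.95 and 13.31 in high light, against 10.29 and 10.67 in no light (3.15 ± 0.60, adjusted p = 0.00443). In the other groups Penk was highest in light plus minocycline array 2, at 13.16, beside 10.67 in light plus minocycline array 1 and 8.93 and 9.42 with light plus NaCl. The vitreous and ciliary body genes described below were high in the same minocycline array. With the Y-linked covariate Penk differed by 0.66 and did not pass (adjusted p = 0.484). Of 23 bipolar cell genes 3 rose (13%) and 2 fell (8.7%), against 10.5% and 15.6% of all genes. The members that rose were Trpm1 and Grm6, the channel and the glutamate receptor of ON bipolar cells, with differences of 1.58 ± 0.27 and 0.86 ± 0.29, and the receptor accessory gene Neto1 at 1.12 ± 0.21. Trpm1 is also made by pigment cells and is counted among the pigment epithelium genes below.

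**Figure D2:**
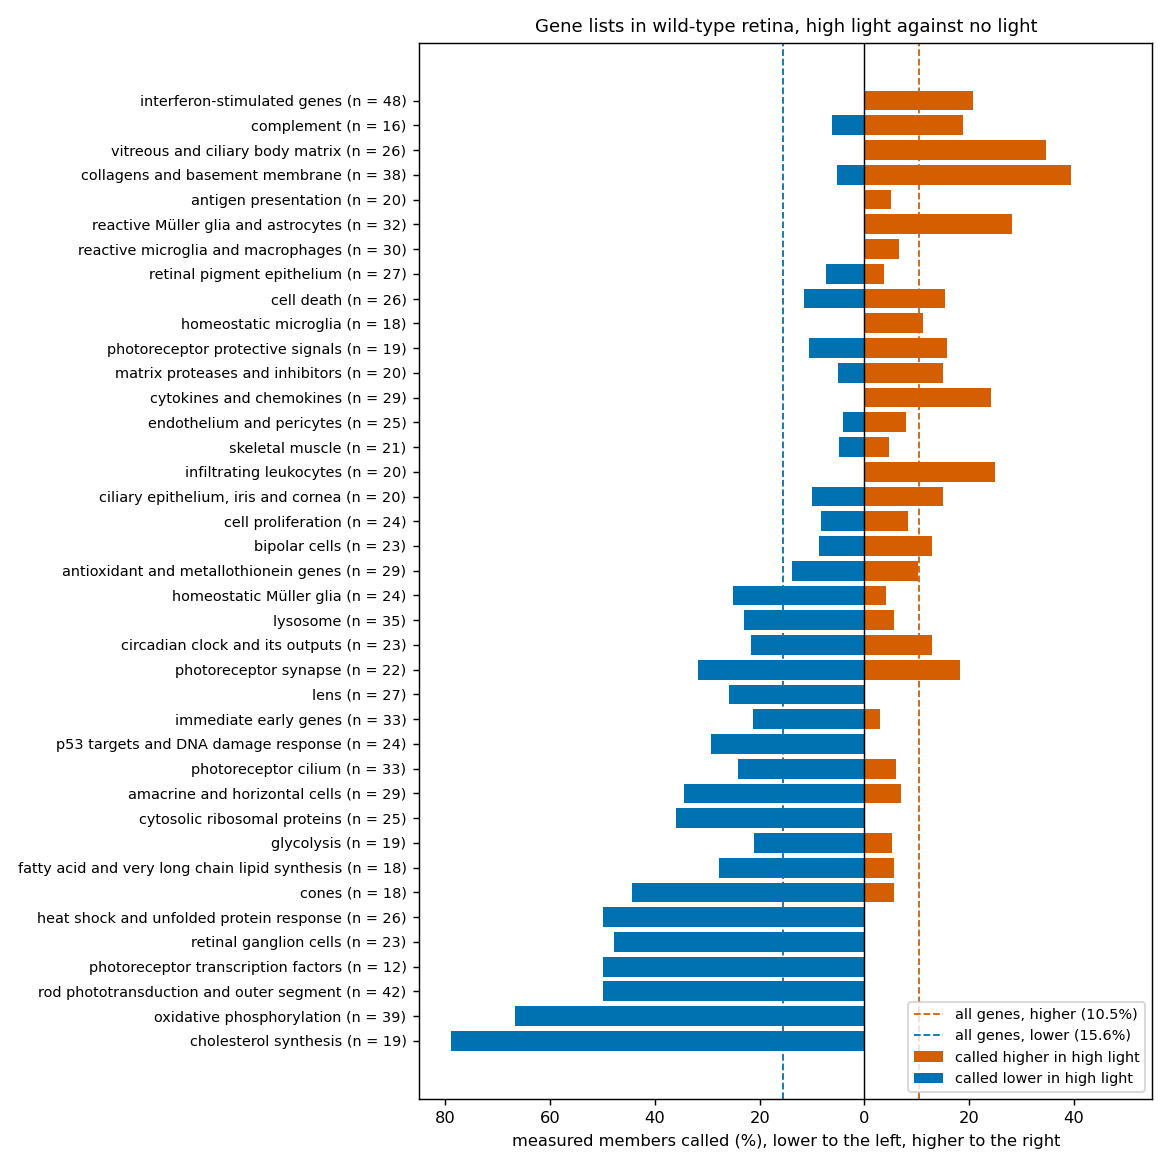
Share of each gene list's measured members (percent, x axis) that were called lower (left of 0) or higher (right of 0) in high light against no light retinas, with the number measured in brackets. The dashed lines mark 10.5% higher and 15.6% lower over all genes, and cholesterol synthesis and oxidative phosphorylation reach furthest to the left.

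The largest shares of lower genes were found among metabolic genes. Of 39 subunits of oxidative phosphorylation, the mitochondrial respiratory chain and ATP synthase, 26 fell and 0 rose, and the median was -0.84. Both high light arrays lay below both no light arrays for 34 of the 39, and for 31.8% of all genes. Sdha, the catalytic subunit of complex II, stood at 10.55 and 10.97 in high light, against 12.90 and 12.46 in no light (-1.92 ± 0.27, adjusted p = 0.00134). Ndufs7, a subunit of complex I, stood at 10.07 and 10.56 in high light and at 12.61 and 12.23 in no light (-2.10 ± 0.30, adjusted p = 0.0014). Uqcrc2, of complex III, differed by -1.75 ± 0.22, at 9.33 and 9.34 in high light and 11.00 and 11.16 in no light, and Atp5o, of ATP synthase, stood at 11.88 and 11.91 in high light and 13.17 and 13.15 in no light. The groups did not overlap for any of these genes. The count was 17 after quantile normalization, 8 with the Y-linked covariate and 18 to 21 when any of the 4 arrays was left out.

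Cholesterol synthesis showed the highest share of all lists, with 15 of 19 genes lower and 0 higher, and a median of -1.03. Hmgcs1, the cytosolic HMG-CoA synthase at the start of the pathway, stood at 13.31 and 13.35 in high light, against 14.71 and 14.25 in no light (-1.15 ± 0.21, adjusted p = 0.00376). Pmvk, the phosphomevalonate kinase, stood at 8.21 and 8.24 in high light and at 9.59 and 9.96 in no light (-1.55 ± 0.23, adjusted p = 0.00158). The later steps Ebp and Dhcr7 differed by -1.36 ± 0.20 and -1.38 ± 0.24, and Insig1, the sterol-sensing retention protein, by -1.36 ± 0.26. For 18 of 19 genes both high light arrays lay below both no light arrays, as for 31.8% of all genes. The list's mean, relative to each gene's mean over all 10 arrays, was -0.63 and -0.49 in high light, against 0.61 and 0.21 in no light, so the no light arrays differed from each other. The count was 8 after quantile normalization, 7 without no light array 1, where the median was -0.76, 7 without high light array 1 and 3 with the Y-linked covariate. The promoter of Hmgcs1 is shown because it was the list's promoter that held the sterol response motif TCACNCCAC, 1 of 15 (6.67%), against 1.19% of tested genes. The motif is in capitals.
Hmgcs1 promoter (chr13:119690101-119690400, plus strand): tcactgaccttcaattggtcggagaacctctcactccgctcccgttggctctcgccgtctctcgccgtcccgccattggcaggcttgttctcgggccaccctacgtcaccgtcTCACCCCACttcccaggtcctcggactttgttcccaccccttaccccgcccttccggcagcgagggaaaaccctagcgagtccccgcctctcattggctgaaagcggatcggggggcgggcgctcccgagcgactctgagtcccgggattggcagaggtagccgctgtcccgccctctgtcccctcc

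Genes of the heat shock and unfolded protein responses were also lower, with 13 of 26 called lower, 0 higher and a median of -0.72, and 4 called lower with the Y-linked covariate. Pdia6, a protein disulfide isomerase of the endoplasmic reticulum, stood at 10.05 and 10.51 in high light, against 12.42 and 12.42 in no light (-2.14 ± 0.24, adjusted p = 7.88e-04). Hsph1, a large cytosolic chaperone, stood at 9.67 and 9.18 in high light and at 11.34 and 11.74 in no light (-2.12 ± 0.25, adjusted p = 8.48e-04). Hspa5, the main chaperone of the endoplasmic reticulum, fell by 1.51 and the inducible Hspa1a fell by 1.72. The stress factor Ddit3 differed by -0.68 ± 0.26 and did not pass. Of 29 antioxidant and metallothionein genes 4 fell (13.8%) and 3 rose (10.3%), near the shares over all genes (15.6% and 10.5%). With the Y-linked covariate 1 fell and 0 rose. The genes that fell were Srxn1 (-1.37 ± 0.22), Prdx3 (-1.27 ± 0.27), the mitochondrial superoxide dismutase Sod2 (-1.16 ± 0.21) and Gpx4 (-1.03 ± 0.30, or -0.51 without high light array 1). Among those that rose, Gpx3 had the largest difference (4.79 ± 0.94) and is described below with the matrix genes. The metallothionein Mt1 stood at 17.20 and 17.00 in high light, against 15.34 and 16.24 in no light (1.31 ± 0.27). Mt2 stood at 16.58 and 15.46 in high light and at 13.27 and 15.38 in no light (1.70 ± 0.53, adjusted p = 0.037), and without no light array 1 it differed by 0.64 and did not pass. Of 25 cytosolic ribosomal protein genes 9 fell (36%) and 0 rose. Of 24 p53 targets and DNA damage genes 7 fell (29.2%) and 0 rose, among them Ccng1 and Gadd45a (-1.10 ± 0.24 and -1.15 ± 0.26). The p53 list's mean level lay at the border of bins 3 and 4, where 19.4% and 27.8% of all genes were called lower. The ribosomal count was 2 with the Y-linked covariate. The p53 count was 4 without no light array 1 or high light array 1 and 0 with the covariate. Among 33 immediate early genes 7 fell and 1 rose, and 3 to 6 fell when an array was left out. The share of immediate early genes that fell was 21.2%, near the 19.4% of all genes in bin 3, where the list's mean level lay. Fos itself stood at 6.78 and 7.21 in high light and at 7.15 and 7.43 in no light, so the groups overlapped.

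**Figure D3:**
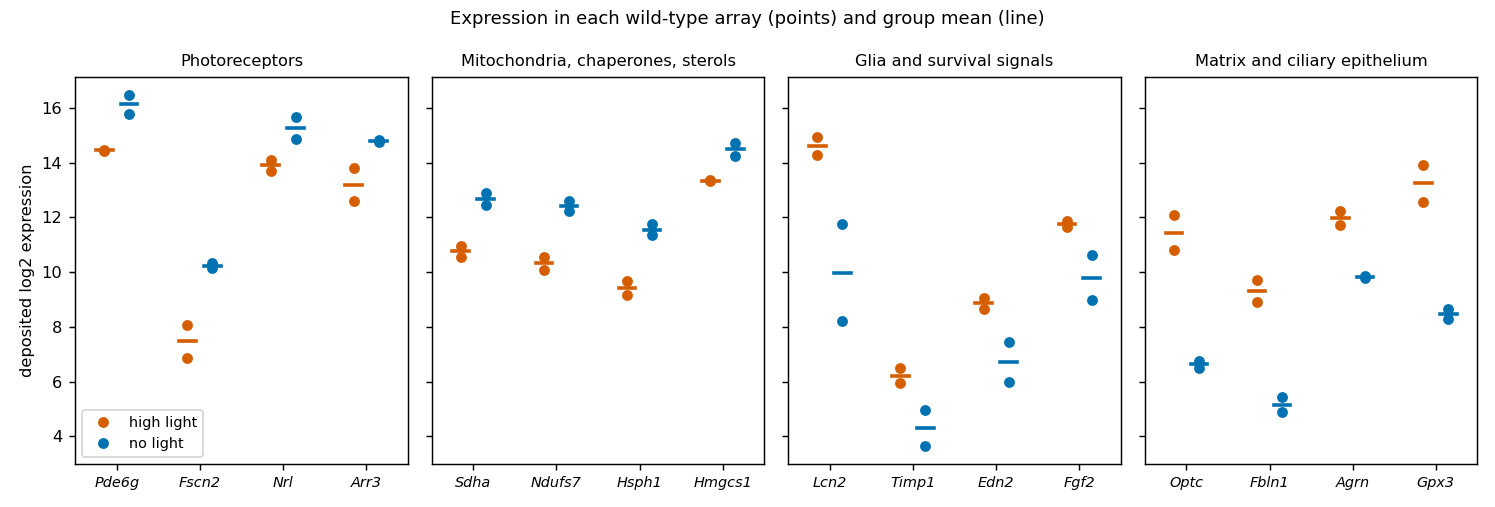
Log2 expression (y axis) of 16 genes in each wild-type array (points) with the group mean (line), high light on the left of each pair and no light on the right. Optc stood at 12.07 and 10.80 in high light, above its no light values of 6.50 and 6.76, while Lcn2 and Edn2 show a wide gap between the no light arrays.

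Genes of reactive glia were among the largest rises, and their values depended on which no light array was used. Of 32 genes of reactive Müller glia and astrocytes 9 rose, 0 fell and the median was 0.59. Lcn2, lipocalin 2, an iron-siderophore binding protein, stood at 14.26 and 14.95 in high light, against 8.21 and 11.76 in no light (4.62 ± 0.86, adjusted p = 0.0041). Both high light arrays lay above both no light arrays, which themselves lay more than 3 units apart. Leaving out each wild-type array in turn gave differences between 2.85 and 6.39 for Lcn2. Timp1, an inhibitor of matrix metalloproteinases, stood at 5.95 and 6.48 in high light and at 3.64 and 4.97 in no light (1.91 ± 0.40, adjusted p = 0.0062). Cp, the copper oxidase ceruloplasmin, stood at 16.56 and 16.79 in high light and at 14.17 and 15.58 in no light (1.80 ± 0.39). Gfap, the intermediate filament long used as the marker of reactive Müller glia, did not separate the groups, at 9.82 and 9.89 in high light and 7.21 and 10.90 in no light (0.80 ± 0.82, adjusted p = 0.495). Serpina3n, a secreted protease inhibitor of reactive glia, stood at 13.32 and 11.96 in high light and at 6.73 and 12.19 in no light and did not pass either (adjusted p = 0.0745). Without no light array 1, 4 of the 32 genes rose and the median was 0.18, and without no light array 2, 14 rose and the median was 1.08. Of 24 genes of resting Müller glia 6 fell (25%) and 1 rose (4.17%), with a median of -0.16. In bin 5, where the list's mean level lay, 26.6% of all genes were called lower. The direction of this list depended on the no light array: without no light array 1, 7 fell and the median was -0.70, and without no light array 2, 1 fell, 4 rose and the median was 0.39. Rlbp1, the retinaldehyde carrier of Müller glia and pigment epithelium, stood at 13.82 and 14.12 in high light, against 15.09 and 15.93 in no light (-1.54 ± 0.30), and the progenitor and glial factor Sox2 fell by 1.22.

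Of 19 genes of signals that protect photoreceptors 3 were higher (15.8%) and 2 lower (10.5%), near the shares over all genes. The higher count was 1 without no light array 1 or high light array 1 and 0 with the Y-linked covariate. Edn2, endothelin 2, which stressed photoreceptors are known to release, averaged 8.86 ± 0.30 in high light and 6.71 ± 1.01 in no light (SD, n = 2 each), where array 2 stood at 7.43 (2.15 ± 0.54, adjusted p = 0.015). Fgf2, basic fibroblast growth factor, stood at 11.66 and 11.88 in high light and at 8.99 and 10.61 in no light (1.97 ± 0.42, adjusted p = 0.00687). For both genes the groups did not overlap, and no light array 1 was the lowest. Without it Edn2 differed by 1.43 and Fgf2 by 1.16. Lif, the cytokine that acts between photoreceptors and Müller glia, differed by 0.89 ± 0.33 and did not pass (adjusted p = 0.0663). Nxnl1, the rod-derived cone viability factor gene, stood at 12.44 and 13.03 in high light, against 15.21 and 14.35 in no light (-2.04 ± 0.31), and the neurotrophin Bdnf fell by 1.45. Of 26 cell death genes 4 rose (15.4%) and 3 fell, and 0 passed with the covariate. The death receptor Tnfrsf1a stood at 9.62 and 8.43 in high light, against 6.17 and 8.24 in no light (1.82 ± 0.58, adjusted p = 0.0385), and without no light array 1 it differed by 0.79 and did not pass. Fas, another death receptor, differed by 0.93 ± 0.28, and the survival genes Mcl1 and Bcl2l1 by -1.30 ± 0.30 and -0.93 ± 0.29.

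**Figure D4:**
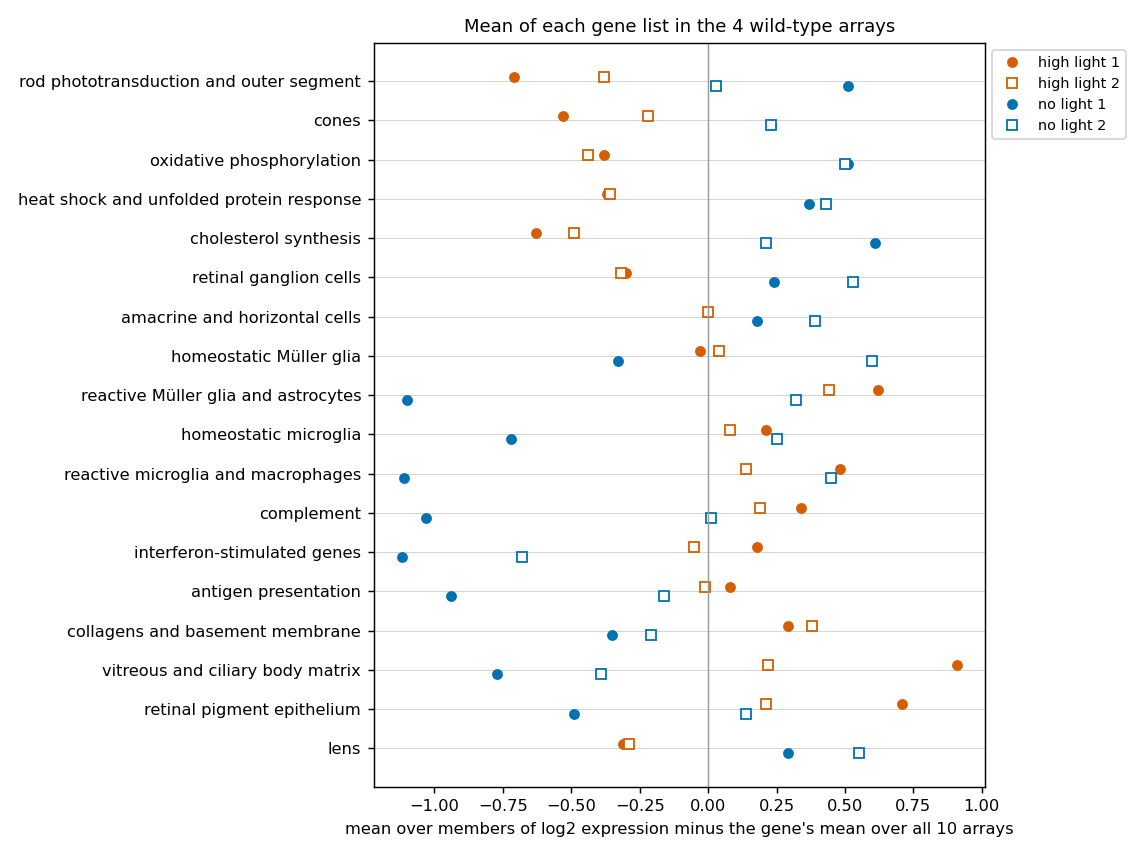
Mean over the members of each gene list of log2 expression minus the gene's mean over all 10 arrays (x axis), for the 2 high light and the 2 no light arrays. No light array 1 lies furthest left for the glial, microglial and complement lists, at -1.10 for reactive Müller glia against 0.32 in no light array 2.

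Microglial, cytokine, complement and leukocyte lists had between 6.67% (reactive microglia) and 25% (leukocytes) of their members called higher, against 10.5% of all genes. Of 18 homeostatic microglia genes 2 rose and 0 fell, and of 30 reactive microglia and macrophage genes 2 rose and 0 fell, with medians of 0.32 and 0.52. Of the homeostatic genes 1 rose without no light array 1 (median 0.02) and 6 rose without no light array 2 (median 0.46). Tmem119, a microglial surface marker, stood at 8.61 and 8.10 in high light, against 6.92 and 6.85 in no light (1.47 ± 0.23, adjusted p = 0.00209). P2ry12, another homeostatic marker, went the other way, at 7.46 and 8.30 in high light and 8.31 and 9.39 in no light. It did not pass (-0.97 ± 0.51, adjusted p = 0.176). Of the 18 homeostatic genes 13 differences were positive and 5 negative. The scavenger receptor Msr1 stood at 6.99 and 6.07 in high light and at 4.38 and 4.28 in no light (2.20 ± 0.33), and the mannose receptor Mrc1 at 7.85 and 7.51 in high light and 4.88 and 6.55 in no light (1.97 ± 0.40). Aif1, which encodes the microglial protein Iba1, stood at 8.68 and 7.96 in high light and at 5.43 and 8.23 in no light, so the groups overlapped (adjusted p = 0.178). Without no light array 1, 2 reactive microglia genes rose, 2 fell and the median was -0.15, while without no light array 2, 13 rose and the median was 1.46. Of 29 cytokines and chemokines 7 rose (24.1%) and 0 fell, led by the monocyte chemokine Ccl7 (6.06 and 5.31 in high light, 4.32 and 4.24 in no light, 1.41 ± 0.26). Il1b stood at 5.46 and 5.08 in high light and at 4.60 and 4.49 in no light (0.72 ± 0.21). The cytokine count was 3 without no light array 1, 3 without no light array 2, 1 without high light array 1 and 1 with the Y-linked covariate. Of 16 complement genes 3 rose (18.8%), among them the inhibitor Serping1 and C4b (2.52 ± 0.72 and 2.33 ± 0.68), and 1 fell. Without no light array 1 or without high light array 1, 0 complement genes were called, and without no light array 2, 6 rose. Of 20 leukocyte genes 5 rose, namely Cd4, Gzmb, Hp, Mpo and S100a9, which T cells, cytotoxic lymphocytes and neutrophils express among others. The neutrophil gene S100a9 stood at 6.40 and 5.42 in high light, against 4.92 and 4.93 in no light (0.98 ± 0.27), and its partner S100a8 at 3.68 and 3.94 in high light and at 4.26 and 4.60 in no light (adjusted p = 0.0687). The leukocyte count was 0 without no light array 1, 1 without no light array 2, 0 without high light array 1, 1 after quantile normalization and 0 with the Y-linked covariate. The list's mean log2 level was 4.89 and 4.66 in high light, against 4.46 and 4.52 in no light, near the lower end of the measured range of 2.7 to 19.5. This lies at the border between the lowest bin of all genes, with 7.8% called higher, and bin 2, with 16.9%.

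Interferon-stimulated genes had a positive median. Of 48 measured 10 rose (20.8%), 0 fell, 42 differences were positive and the median was 1.06. Both high light arrays lay above both no light arrays for 34 of the 48, and for 31.2% of all genes. Irf7, the transcription factor that amplifies type I interferon, stood at 8.18 and 9.73 in high light, against 6.94 and 7.05 in no light (1.96 ± 0.62, adjusted p = 0.0371), and differed by 1.19 without high light array 2. Eif2ak2, the RNA-activated kinase PKR, stood at 9.32 and 8.24 in high light and at 6.57 and 7.12 in no light (1.94 ± 0.53, adjusted p = 0.0212). Ifit1 stood at 8.69 and 7.85 in high light and at 5.29 and 6.20 in no light and narrowly missed the threshold (2.52 ± 0.91, adjusted p = 0.0601). The number called depended on the fit: 26 were called when only the wild-type groups were fitted, 31 with the Y-linked covariate, and 1 to 5 when an array was left out. The interferon response element, GAAA followed by any pair of bases and GAAA again, searched on both strands, was found in 20 of 36 promoters of these genes (55.6%), against 3.41% of tested genes. The promoters of Eif2ak2 and Oas1g, an oligoadenylate synthetase gene that rose by 1.06 ± 0.30, are shown as examples, with the motif in capitals. In Oas1g a pair of matches overlap. A pair of other motifs was searched in the same way. The STAT motif TTCNNNGAA was found in 4 of 28 promoters of reactive Müller glia and astrocyte genes (14.3%), against 7.9% of tested genes. The AP-1 motif TGANTCA was found in 0 of 27 promoters of immediate early genes, against 7.27% of tested genes.
Eif2ak2 promoter (chr17:78882523-78882822, minus strand): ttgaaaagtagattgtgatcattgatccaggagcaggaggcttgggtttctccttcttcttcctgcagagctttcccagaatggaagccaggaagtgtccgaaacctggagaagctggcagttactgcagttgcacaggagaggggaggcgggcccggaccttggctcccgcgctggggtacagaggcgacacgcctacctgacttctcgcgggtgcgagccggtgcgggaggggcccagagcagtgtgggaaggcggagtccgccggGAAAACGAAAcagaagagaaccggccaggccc
Oas1g promoter (chr5:120887564-120887863, minus strand): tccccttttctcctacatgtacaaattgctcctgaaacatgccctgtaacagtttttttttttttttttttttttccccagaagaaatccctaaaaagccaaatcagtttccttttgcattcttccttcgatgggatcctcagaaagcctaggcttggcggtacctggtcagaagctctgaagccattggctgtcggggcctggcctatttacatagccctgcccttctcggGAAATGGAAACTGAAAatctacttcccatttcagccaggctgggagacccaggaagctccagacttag

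Collagens and basement membrane genes gave more called rises than any other list. Of 38 measured 15 rose and 2 fell, and the median was 0.70. Agrn, the basement membrane proteoglycan agrin, stood at 11.73 and 12.23 in high light, against 9.77 and 9.87 in no light (2.16 ± 0.26, adjusted p = 8.48e-04). Col9a3, a chain of collagen IX, stood at 9.65 and 9.42 in high light and at 7.91 and 7.95 in no light (1.60 ± 0.20, adjusted p = 8.57e-04). The laminin chains Lama2, Lama5 and Lamc3 differed by 1.41 ± 0.26, 1.10 ± 0.20 and 1.34 ± 0.29. Col4a3, a chain of collagen IV, went the other way (8.34 and 8.94 in high light, 10.19 and 11.03 in no light, -1.97 ± 0.56). The basement membrane count stayed between 9 and 13 when an array was left out and was 13 after quantile normalization, but 2 rose and 2 fell with the Y-linked covariate.

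Several of the highest rises of all were in genes of the matrix of the vitreous and ciliary body, of which 9 of 26 rose and 0 fell. The count was 4 without no light array 1, 3 without high light array 1 and 1 with the Y-linked covariate. Optc, opticin, a proteoglycan made by the ciliary epithelium (chr1:133897193-133909688, build GRCm38.p6), stood at 12.07 and 10.80 in high light, against 6.50 and 6.76 in no light (4.80 ± 0.75, adjusted p = 0.00199). Fbln1, fibulin 1, stood at 9.70 and 8.91 in high light and at 5.44 and 4.88 in no light (4.14 ± 0.76). Gpx3, the secreted glutathione peroxidase, which is counted in the antioxidant list and not here, stood at 13.93 and 12.57 in high light and at 8.28 and 8.65 in no light (4.79 ± 0.94, adjusted p = 0.00505). In CLN3-deficient retinas Optc stood at 6.63 and 7.09 with light plus NaCl, against 7.59 and 5.75 without light, and Gpx3 at 9.44 and 8.67, against 9.29 and 8.26. They were high in an array of another group, light plus minocycline array 2, at 10.73 for Optc, 13.88 for Gpx3 and 9.80 for Fbln1, beside 8.13, 9.90 and 6.43 in light plus minocycline array 1. Some markers of tissue next to the retina were higher in the same arrays. The melanin genes Dct and Tyrp1 stood at 12.98 and 11.31 and at 12.96 and 10.16 in high light, against 7.24 and 9.17 and 7.90 and 9.22 in no light, and at 13.77 and 14.03 in light plus minocycline array 2. Neither of these melanin genes passed the test. Of the 27 pigment epithelium genes 1 rose, which was Trpm1, also a bipolar cell gene, and 2 fell. The list's mean log2 level was 8.85 and 8.35 in high light, against 7.65 and 8.28 in no light. Rpe65 stood at 8.06 and 8.06 in high light and at 8.00 and 9.24 in no light, so it did not follow. Of 20 genes of the ciliary epithelium, iris and cornea 3 rose, among them the bicarbonate transporter Slc4a5 (10.13 and 9.20 in high light, 7.84 and 7.96 in no light) and Zic1 (11.82 and 10.18 in high light, 8.73 and 9.49 in no light). Of this list 1 rose without high light array 1 and 0 with the covariate. Their part in the matrix result was not tested. With the Y-linked covariate Optc differed by 2.21 and Gpx3 by 0.81, and neither passed. The covariate is set by the difference between the light plus minocycline arrays, and both genes were high in array 2 of that pair. These values therefore do not separate sex from that difference.

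Lens crystallins gave the largest falls outside the Y chromosome. Cryaa, alpha-A crystallin, stood at 7.50 and 7.18 in high light, against 12.46 and 13.24 in no light (-5.51 ± 1.64, adjusted p = 0.0297), and Cryba1 at 6.54 and 7.41 in high light and 11.78 and 12.78 in no light (-5.30 ± 1.57). Cryaa ranged from 7.03 to 14.58 over the 6 CLN3-deficient arrays, with 13.35 and 9.31 in the light plus NaCl duplicates. Of 27 lens genes 7 fell and 0 rose, but 0 to 2 were called when an array was left out, and Cryaa differed by 0.91 in the opposite direction with the Y-linked covariate. Markers of endothelium and pericytes (2 of 25 higher, 1 lower) and of skeletal muscle (1 of 21 higher, 1 lower) showed few calls. Krt12, a keratin of the cornea, stood at 5.94 and 5.48 in high light and at 5.60 and 5.48 in no light.

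Other genes with large differences and little spread belonged to no list. Flna, the actin cross-linker filamin A, stood at 13.50 and 13.23 in high light, against 10.36 and 10.49 in no light (2.94 ± 0.22, adjusted p = 1.23e-04), and stayed between 2.81 and 3.08 when any wild-type array was left out. The focal adhesion gene Lpp stood at 9.55 and 9.54 in high light and at 6.51 and 7.30 in no light (2.64 ± 0.26). Lncpint, a long noncoding RNA, stood at 13.61 and 13.23 in high light and at 10.83 and 11.10 in no light (2.46 ± 0.24). The groups were far apart for all of them. Among the falls, Ppp1r35, a centrosomal protein, stood at 6.11 and 6.06 in high light and at 9.17 and 9.59 in no light (-3.29 ± 0.26, adjusted p = 1.49e-04). The DnaJ chaperone Dnaja2 stood at 6.41 and 6.39 in high light, against 9.03 and 9.36 in no light (-2.79 ± 0.22), and Ddit4, an inhibitor of mTOR signalling that stress and glucocorticoids induce, at 9.87 and 10.39 in high light and 13.31 and 12.50 in no light (-2.77 ± 0.34). Rdh11, a retinol dehydrogenase, fell by 2.65, and the splicing factors Txnl4a and Ddx23 fell by 2.56 and 2.54. With the Y-linked covariate the differences of Flna, Ppp1r35 and Dnaja2 were 3.24, -3.29 and -3.15.

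**Figure D5:**
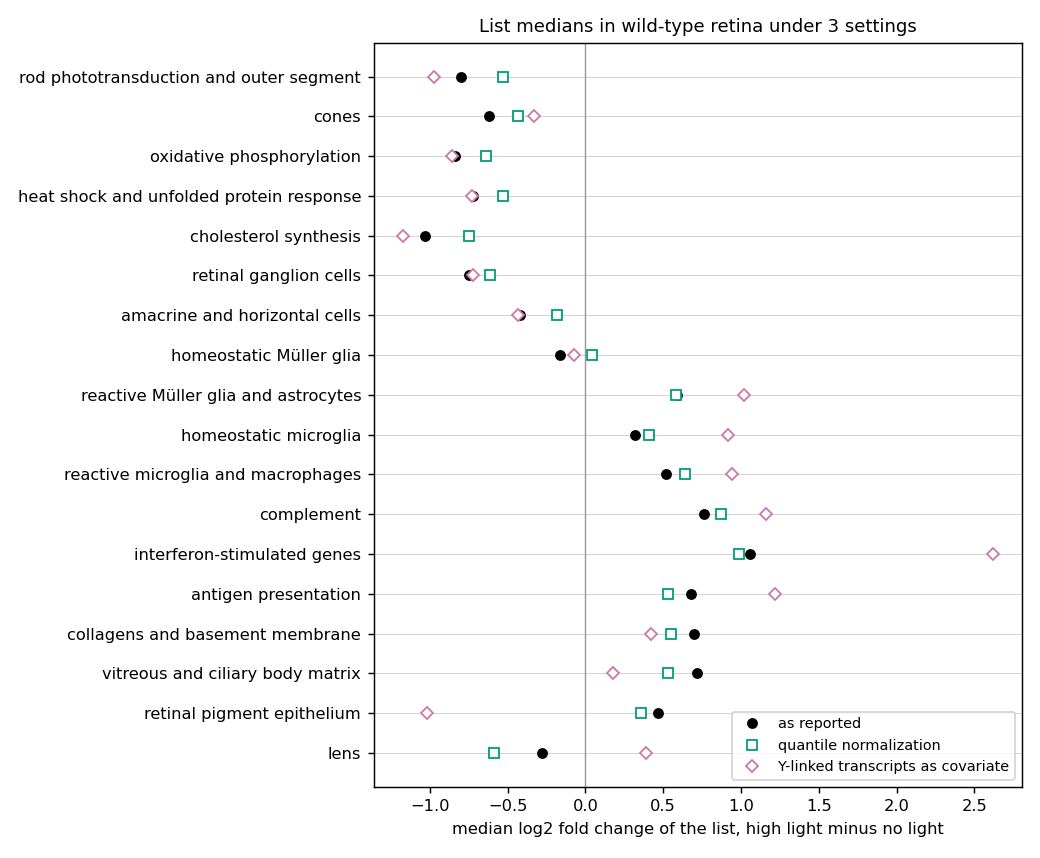
Median log2 difference, high light minus no light, of 18 gene lists (x axis) as reported, after quantile normalization and with the Y-linked covariate. The medians of the rod, cone, mitochondrial, chaperone and cholesterol lists stay below 0 under all 3, whereas pigment epithelium and lens change side with the covariate.

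Whether this response was particular to wild-type mice was addressed by the difference of the light effects of both genotypes, taking light plus NaCl against no light in CLN3-deficient retinas. The labels give no dose for those arrays, the methods name low light for the minocycline study, and injections were given. The Y-linked transcripts also ran in opposite directions in the genotypes, as given below. Genotype, dose, injection and sex therefore cannot be told apart in this difference. By limma 0 of 19505 genes (0%) passed at an adjusted p under 0.05, and 2170 (11.1%) had an unadjusted p under 0.05. Of the 48 interferon-stimulated genes 35 had an unadjusted p under 0.05, with a list median of 1.06 in wild-type and 3.13 in CLN3-deficient retinas. Irf7 differed by 1.96 in wild-type and 7.47 in CLN3-deficient retinas (difference of the effects -5.51 ± 0.87, adjusted p = 0.0955). Rod genes had close medians, at -0.80 in wild-type and -0.69 in CLN3-deficient retinas, and 5 of 42 had an unadjusted p under 0.05. Oxidative phosphorylation genes had medians of -0.84 in wild-type and -0.53 in CLN3-deficient retinas, with 10 of 39 at an unadjusted p under 0.05. For collagens and basement membrane genes the medians were 0.70 in wild-type and 0.32 in CLN3-deficient retinas, and 12 of 38 had an unadjusted p under 0.05. In these CLN3-deficient groups the Y-linked transcripts ran the opposite way, with Uty at 11.85 and 11.96 in light plus NaCl arrays and at 4.13 and 3.50 in no light arrays. The light effect averaged over both genotypes, in which this is balanced, gave 3095 genes higher and 4233 lower.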

How the data were processed

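Total retinal RNA of 10 mice was hybridised to Affymetrix arrays, named as Clariom S in the series' design and as another mouse genome array in the study's methods. Using Affymetrix Expression Console, of which the sources used here give neither version nor algorithm, the authors made and deposited log2 values for 22206 transcript clusters. The platform's annotation gave 19572 clusters 1 gene symbol and left 2634 unnamed here. Of several clusters with 1 symbol (55 genes) that with the highest mean was used, which left 19505 genes. Low values were kept. Groups were taken from the labels.

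Differences were tested with limma 3.58.1 in R 4.3.3 (lmFit, eBayes without trend) with a mean for each of 5 groups over all 10 arrays, and p was adjusted by Benjamini-Hochberg over all genes. Simulated data were used to test it. Only 2 arrays a group limit the precision: the median SE was 0.24. The gene comparison and the 41 gene lists (1083 genes, 979 measured, the others not analysed here) were chosen with earlier results of these data known. Named genes were, among called genes with no overlap of the groups, the 20 that rose most and the 20 that fell most; from every list at most 8 members, those of lowest p; and a set of landmark genes; further list members were named after their values were seen. Alternatives were other scalings, filters, variance models, fits, gene summaries and thresholds, the methods' t-test, a covariate for Y-linked transcripts, a light effect averaged over genotypes and leaving out each array. Promoters and gene positions are RefSeq's in build GRCm38.p6, matched by the platform's Entrez gene number, or by symbol where that gave no match.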

Additional observations from a re-analysis of the deposited data

Results flagged for a closer look

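For 8 genes the difference between light and no light was called in opposite directions in the genotypes, and the arrays of light and no light did not overlap in either. In wild-type retinas the differences (high light minus no light, limma) were -1.11 for Bmyc, -0.95 for Cuta, -1.12 for Dusp1, -0.66 for Krtcap2 and -0.73 for Traf7, and -8.47, -5.33 and -8.23 for the Y-linked Eif2s3y, Kdm5d and Uty. The corresponding differences in CLN3-deficient retinas were 0.64, 1.27, 1.32, 0.78 and 0.78, and 9.69, 5.67 and 8.09. The other genes thus ran in the same directions as the Y-linked transcripts, and for them sex and light cannot be told apart. The difference of the effects was tested, and no gene passed after adjustment over all genes (adjusted p between 0.0955 and 0.18). Dusp1, a phosphatase induced by stress, stood at 11.07 and 11.39 in high light, against 12.46 and 12.25 in no light.

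Among the 2634 transcript clusters without a gene name in the annotation used here, 419 were higher and 251 were lower in high light retinas by limma.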

How the results depend on the processing

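The 2044 genes called higher and 3037 called lower in high light retinas became 1358 higher when only the wild-type groups were fitted, 1931 lower after quantile normalization, 407 higher and 622 lower with the Y-linked covariate, 3095 higher when averaged over genotypes, and 0 higher and 0 lower by the methods' t-test, which called 1574 and 2063 at an unadjusted p under 0.05. Leaving out each wild-type array gave 829 to 1924 higher and 1440 to 2771 lower genes; the 829 and 1440 were without high light array 1, 1256 higher came without no light array 1, and 1015 higher and 1734 lower without no light array 2. Among the calls the share of lower genes was 66.8% without the dimmest 30% of genes. The 60 higher and 92 lower genes at the fold threshold became 93 and 48 after quantile normalization, 225 and 275 with the Y-linked covariate, 96 and 34 when averaged over genotypes, and 1007 and 1700 at a log2 fold change of 1. The higher count was 38 by the methods' t-test and 91 when every transcript cluster was counted. Leaving out an array gave 45 to 105 higher (105 without no light array 2 and 105 without high light array 2) and 68 to 212 lower (212 without high light array 2). The genotype by light count of 0 became 11 more positive and 68 more negative in wild-type retinas in a fit of the 4 groups without minocycline, and 3 more negative with trend and robust.

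Of 362 named genes 299 stayed the same after quantile normalization and 158 with the Y-linked covariate, under which 186 kept their direction but no longer passed. Staying the same means the same side of the threshold, and the same direction unless the gene passed in neither fit. Among named genes that passed in either fit, the sign changed with the covariate for Cryaa (0.91), Cryba1 (0.82), Crygs (0.56), Dusp1 (0.24), Crygb (0.22), Crygc (0.10), Eif2s3y (1.42) and Kdm5d (1.06). With the average over genotypes it changed for Dusp1 (0.10), Eif2s3y (0.61), Kdm5d (0.17) and Zbp1 (0.70). Sign changes of genes that passed in neither fit, such as P2ry12 (-0.97, and 0.69 with the covariate), are not listed. The causes were not tested, and the covariate rests on the 2 minocycline arrays, of which 1 held Y-linked transcripts. No paired analysis was possible because the labels give no replicate numbers shared between the groups. The 2 arrays a group, the confounding of sex with light and the gap between the no light arrays limit every comparison.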

Other observations

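Of 23 genes of the circadian clock and its outputs 3 rose (13%) and 5 fell (21.7%), near the shares over all genes (10.5% and 15.6%), and 2 to 4 fell when an array was left out. None of the sources used here gives the time of day at which the retinas were taken. Per2, a repressor of the clock, stood at 9.61 and 9.37 in high light, against 7.91 and 7.70 in no light (1.69 ± 0.22, limma adjusted p = 0.00109). Arntl, which encodes the clock activator BMAL1, stood at 12.26 and 12.86 in high light and at 13.74 and 13.37 in no light (-0.99 ± 0.28). Per3 and the dopamine receptor gene Drd4 rose by 1.03 ± 0.19 and 1.10 ± 0.26. Tsc22d3 and Sgk1, which glucocorticoids induce, fell by 1.29 and 1.04. Per1 differed by 0.16 and did not pass.

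Of 35 lysosomal genes 8 fell and 2 rose, and 3 to 7 fell when an array was left out. Cln8 stood at 7.53 and 8.76 in high light, against 10.18 and 10.12 in no light (adjusted p = 0.00323), and Ppt1 at 10.71 and 10.68 in high light and 11.54 and 11.74 in no light (-0.94 ± 0.20); mutations of both human genes cause other forms of neuronal ceroid lipofuscinosis. The lysosomal channel gene Mcoln1 rose by 1.15 ± 0.24. Cln3 itself stood at 10.25 and 10.48 in high light and at 10.72 and 10.30 in no light, and the groups overlapped.

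Of 19 glycolysis genes 4 fell (21.1%) and 1 rose (5.26%), and 1 fell without no light array 2 or high light array 1. Slc2a1, the main glucose transporter, stood at 17.49 and 17.14 in high light, against 16.41 and 15.92 in no light (1.15 ± 0.23), and the lactate transporter Slc16a1 at 12.33 and 12.51 in high light and 13.87 and 13.71 in no light (-1.37 ± 0.23). Among 24 proliferation genes Mki67 stood at 5.50 and 5.47 in high light and at 4.37 and 4.47 in no light (1.06 ± 0.23), and Mcm4 fell by 1.02.

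The calls varied with gene length. When genes were divided by length into 5 bins of equal size, 13.5% were higher and 10.9% lower in the shortest, 13.5% were higher and 10.3% lower in the longest, and in the other bins 7.9 to 8.8% were higher and 17.9 to 20.3% lower.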
